A study of Danio rerio with 9 samples.

Results

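The transcripts described here are those of the zebrafish inner ear whose level lay near that of controls 2 days after sound exposure and above it 4 days after. They were chosen on measured values. A probe was kept when both of its spots were marked by the scanner software as well above background on all 9 arrays, when the mean log2 level on Day 4 exceeded that of controls by at least 0.5, when the lowest Day 4 array lay above the highest control array, and when the mean level on Day 2 lay within 0.25 of that of controls in either direction. Of 21495 probes on the array 8024 passed the background filter and 96 met all limits, which is 1.2% of the filtered probes. The 96 probes carry 90 gene or transcript names, and 53 of them were matched to 47 current RefSeq genes. Because the limits use all 3 groups, the differences between groups are given as a description. No P-value is given for any of the 96 probes, and calls across all probes that include some of them are stated as counts only.

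Adult zebrafish in 3 groups were compared, assigned at random. Control fish had no sound exposure, Day 2 fish were killed 2 days after exposure to a loud low tone, and Day 4 fish were killed 4 days after it. Each group gave a single RNA pool, made from the whole inner ears of 18 to 20 fish and read on 3 arrays with 1 dye. The 3 arrays of a group are therefore technical replicates, their SD measures hybridization only, and the spread between fish was not measured. In such bulk RNA, fewer cells of a type and less RNA per cell cannot be told apart.

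Loud sound kills sensory hair cells in the fish ear, and these cells are replaced from supporting cells over the following days. Several families among the 96 probes are known from other settings. Heat shock proteins are chaperones that hold or refold other proteins and are induced by protein damage through heat shock factor 1. Keratins form the intermediate filaments of epithelial cells, and small Maf proteins are partners of the NRF2 family in the regulation of antioxidant genes.

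Levels below are log2 intensities relative to the 75th percentile of the same array, so a difference of 1 is a 2-fold change, and the level of a probe cannot be set against that of another probe. On this scale the 96 probes were higher on Day 4 than in controls by a median of 0.63, with a range of 0.50 to 1.61, whereas the 8024 filtered probes differed by a median of 0.02. Their median difference between Day 2 and controls was 0.01, and between Day 4 and Day 2 it was 0.66. All Day 4 arrays lay above all Day 2 arrays for 91 of the 96 probes, against 27% of the filtered probes. The limits fix the order of the group means here, so nothing is read from that share. The probes were mostly dim. Their median control signal stood at percentile 28.8 of the filtered probes, with 47 of the 96 below the 25th percentile and 9 above the 75th.

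**Figure D1:**
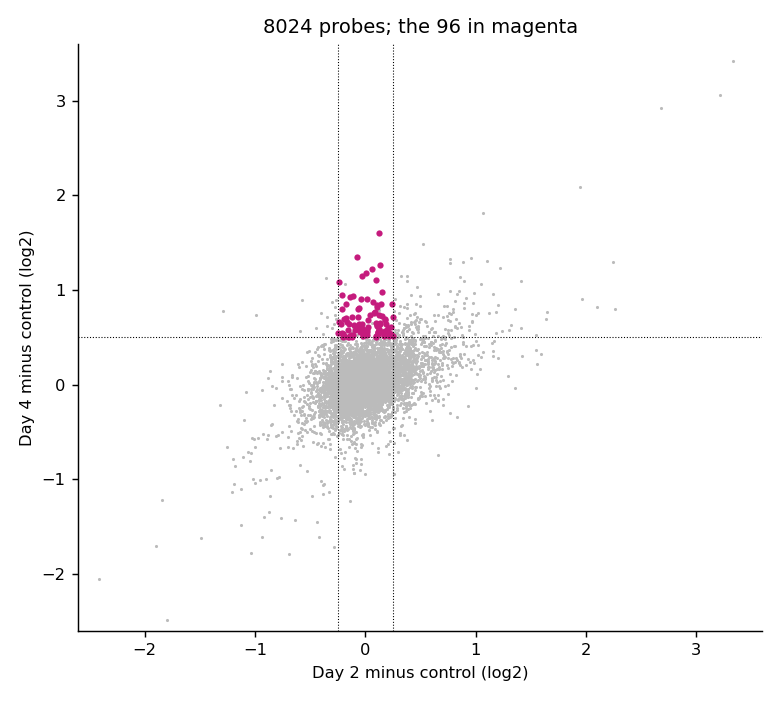
Day 2 minus control (x axis) and Day 4 minus control (y axis) in log2 units for the 8024 probes well above background on all 9 arrays, each a mean of 3 arrays per group. The 96 probes, in magenta, sit between the dotted lines at -0.25 and 0.25 on the x axis and above the dotted line at 0.5 on the y axis.

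The limits fall in a continuous distribution. Just inside the Day 4 limit were hsf1 with 0.501, TC296133 with 0.504 and clic5b with 0.506, and just outside were AL719470 with 0.497, BC076128 with 0.494 and wu:fi56d12 with 0.493. At the upper Day 2 limit, wu:fj42e07 (0.249), BC057470 (0.249) and CN014321 (0.239) were kept, while CK697851 (0.255), rgcc (0.255) and eif4ebp3l (0.259) were not. At the lower Day 2 limit, ENSDART00000013984 (-0.245), CO921612 (-0.242) and pptc7a (-0.242) were kept, while 2 probes of ENSDART00000022958 (-0.269 and -0.271) and cabp1b (-0.270) were not. The lowest Day 4 array cleared the highest control array by 0.006 for ENSDART00000044332, 0.010 for TC269540 and 0.013 for TC292455, and it fell short by 0.002 for provisionalck739236, 0.003 for cd81a and 0.011 for otud7b. A difference of at least 0.5 on Day 4 was reached by 3.59% of the filtered probes, 3.35% without overlap with controls. Of the 269 probes in the second share, 159 were left out because Day 2 was too high and 14 because it was too low.

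The arrays were not spread evenly over the slides. By the scan records in the files, replicate 1 of every group was on slide 1, control and Day 2 replicate 2 were on slide 2, and slide 3 held replicate 3 of each group together with replicate 2 of Day 4. The local background on slide 3 was 129 to 153.5 intensity units, compared with 69.5 to 74 on slide 1 and 63.5 to 66 on slide 2. Of the spots, 39.5% (replicate 2) and 44.5% (replicate 3) were well above background on the Day 4 arrays of slide 3, and 47.3% to 56.9% on the other 7 arrays.

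Replicate 1 of Day 4 showed the difference from controls to a lesser degree than replicates 2 and 3. The median difference of the 96 probes from the control mean was 0.41 on replicate 1, 0.73 on replicate 2 and 0.73 on replicate 3, and it was 0.06, 0.06 and 0.01 on the Day 2 arrays. Replicate 1 was the lowest of the 3 Day 4 arrays for 79 of the 96 probes (82.3%), against 52.6% of the filtered probes. It lay at least 0.25 below the mean of the other 2 for 58 of the 96 probes, against 14.4% of the filtered probes. The Day 4 mean used by the limits takes replicates 2 and 3 from slide 3 and only replicate 1 from slide 1. The limits can therefore favour probes with a lower replicate 1, and nothing is read from these shares.

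**Figure D2:**
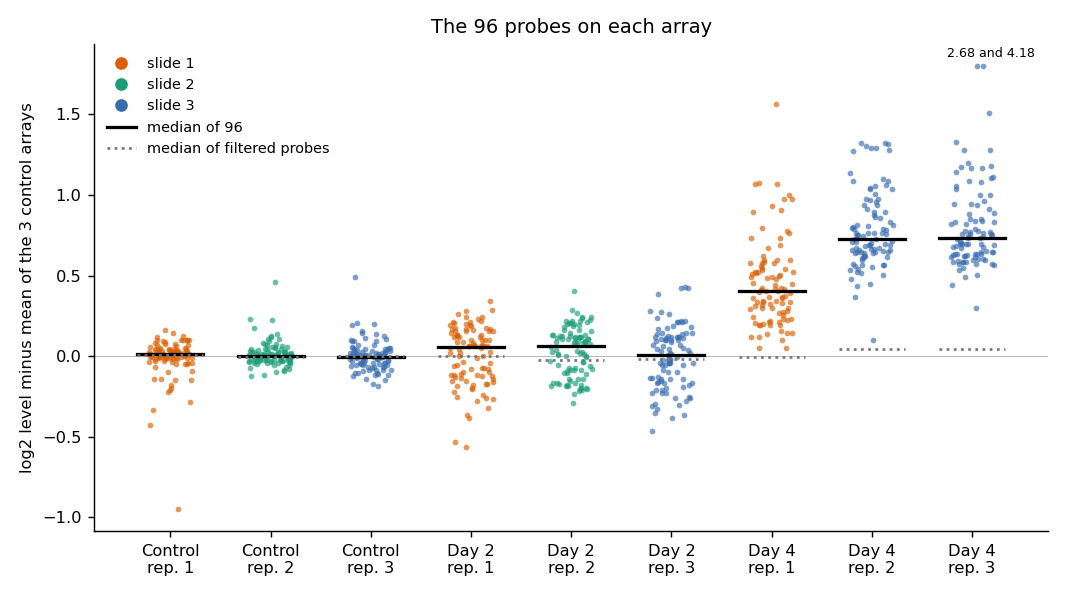
Log2 level of each of the 96 probes minus its own mean over the 3 control arrays (y axis), on each of the 9 arrays (x axis). Points are probes coloured by slide, solid bars are the medians of the 96 probes (0.41 on Day 4 replicate 1, 0.73 on replicates 2 and 3), dotted bars are the medians of the 8024 filtered probes, and the 2 points drawn at the top on Day 4 replicate 3 lie at 2.68 (TC292455) and 4.18 (arfgap1).

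Controls and Day 4 shared slides 1 and 3, and the limit on overlap fixes the direction of the difference within each of them. The values are therefore a description, and nothing is read from the shares beside them. On slide 1 the level of Day 4 replicate 1 was above control replicate 1 for all 96 probes, by a median of 0.43, and by at least 0.5 for 41 of them against 4.09% of the filtered probes. On slide 3 the mean of Day 4 replicates 2 and 3 exceeded control replicate 3 by a median of 0.76, and by at least 0.5 for 90 probes against 5.26% of the filtered probes. Both slides reached 0.5 for 36 probes, and replicate 1 lay at least 0.5 above the mean of the controls for 35, against 2.6% of the filtered probes. With replicate 1 as the single Day 4 array, 35 of the 96 probes still met the limits, among 42 in all.

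The 96 probes thus divided by how far replicate 1 followed the other Day 4 arrays. For 38 probes replicate 1 lay above the mean of replicates 2 and 3 or less than 0.25 below it, with a median difference from controls of 0.57 on replicate 1 and 0.64 on replicates 2 and 3. For the other 58 it was 0.30 on replicate 1 and 0.81 on replicates 2 and 3. Their control signals had medians of 0.25 and -0.66 respectively. Whether the dimmer signal of the Day 4 arrays on slide 3 has a part in this division was not tested.

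**Figure D3:**
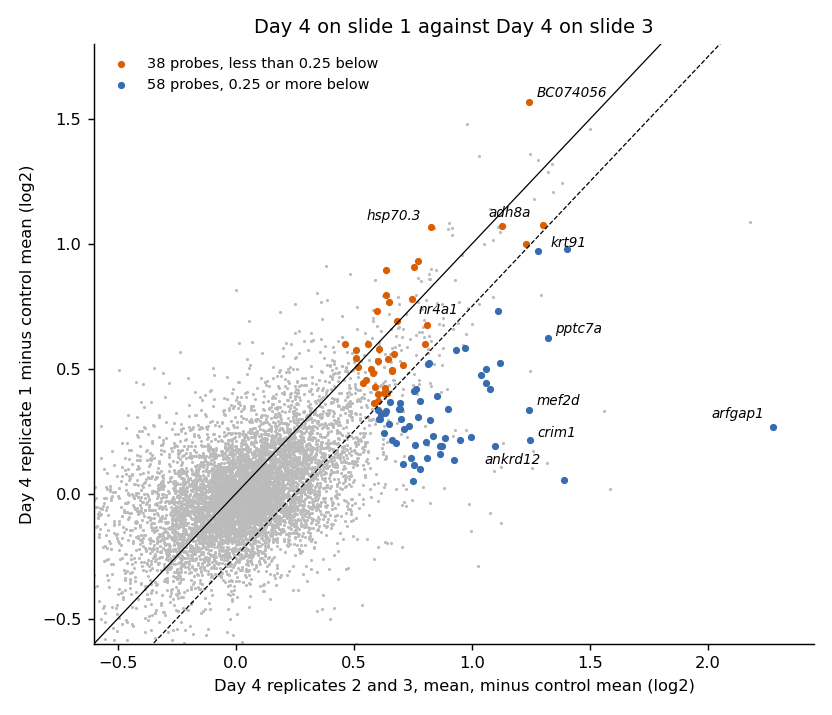
Difference from the control mean on Day 4 replicates 2 and 3, slide 3 (x axis), and on Day 4 replicate 1, slide 1 (y axis), in log2 units, with filtered probes in grey. The solid line marks equal values and the dashed line a replicate 1 value 0.25 lower. The 38 probes in orange lie above the dashed line, among them a krt91 probe, hsp70.3 and nr4a1, and the 58 in blue lie on or below it, among them mef2d, crim1 and ankrd12.

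The keratin probes had some of the largest differences that all 3 Day 4 arrays shared. For krt91, an epithelial keratin, the level was 2.78, 2.79 and 2.71 on the control arrays, 2.89, 2.84 and 2.72 on the Day 2 arrays, and 3.84, 4.08 and 4.04 on the Day 4 arrays. Control and Day 2 arrays overlapped, and Day 4 stood apart at 2.34-fold the control mean (3.99 ± 0.13 against 2.76 ± 0.04, SD, n = 3 arrays). A second krt91 probe, which overlaps the first on the genome, had 2.26-fold (1.18). The type I cytokeratin cki had levels of 0.47, 0.55 and 0.55 in controls, 0.51, 0.49 and 0.48 on Day 2, and 1.53, 1.82 and 1.69 on Day 4, a 2.22-fold difference. Both lie on chromosome 19 of danRer2, the krt91 probes at chr19:583394-583489 and the cki probe at chr19:598880-598935, 15391 bases apart. A further krt91 probe was well above background on 3 arrays only and differed by 0.64.

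A difference of this size was not found across the keratin list. Of its 28 probes 3 were called higher in Day 4:Control, and these were the 2 krt91 probes and cki. A call here means that limma gave a change of 1.4-fold or more with a P-value, adjusted by Benjamini-Hochberg across the array, no higher than 0.05, which 0.712% of all probes reached in this direction. For probes among the 96 a call uses the contrast that chose them, so it is a count from which nothing is read. The median of the 19 filtered keratin probes was 0.12, against 0.02 for all filtered probes, whose quartiles were -0.09 and 0.15. The summed log2 level of the keratin list, which includes these 3 probes, was 8.89 to 8.95 in controls. It was 8.86 to 8.93 on Day 2 and 8.97 to 9.21 on Day 4. Keratins 4, 5, 8 and 97, which are abundant in fish epidermis, had filtered probes with differences of -0.30 to 0.38, none of them called. The list of epidermis and mucosa markers had a summed log2 level of 9.00 to 9.06 in controls, 9.02 to 9.08 on Day 2 and 9.05 to 9.30 on Day 4, with 2 of 37 probes called higher, both krt91. Of these 37 probes 20 were well above background on all 9 arrays. Those for tp63, ppl, cldne and anxa1c, further markers of that epithelium, were so on no array. In Day 2:Control 3 of the 37 were called higher (1.91% of all probes). In Day 4:Day 2 the 2 krt91 probes were called higher (0.675%) and 1 probe lower (1.03%). The part of epidermal tissue in the dissection was not tested.

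In all, 5 probes belong to the heat shock response, and 4 of them were as high on replicate 1 of Day 4 as on the other arrays. The probe hsp70.3, an inducible HSP70 chaperone, had levels of 3.47, 3.49 and 3.47 in controls, 3.35, 3.44 and 3.51 on Day 2, and 4.54, 4.28 and 4.33 on Day 4. All Day 4 arrays were above the 6 others, replicate 1 was the highest, and the difference was 1.88-fold. A probe named hsp70 in the files lay 80 bases further along chromosome 3 (chr3:16141123-16141182, danRer2), with 2.94, 2.98 and 3.11 in controls, 2.75, 2.93 and 3.16 on Day 2, and 3.92, 3.74 and 3.79 on Day 4. HSP70 genes are close copies of each other, so the 2 probes may read the same transcripts. The transcript TC269112, described in the files as DnaJ homolog B1, an HSP40 partner that brings clients to HSP70, had 3.46, 3.44 and 3.45 in controls, 3.51, 3.34 and 3.40 on Day 2, and 4.18, 4.06 and 4.03 on Day 4.

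The co-chaperone bag3, which links HSP70 to autophagy, had levels of 0.34, 0.21 and 0.17 in controls, 0.14, 0.10 and 0.03 on Day 2, and 0.84, 0.72 and 0.68 on Day 4. Within each group replicate 1 was the highest, and the differences within slide 1 (0.50) and slide 3 (0.53) were close. For hsf1, the factor that induces these genes, the levels were -0.58, -0.60 and -0.55 in controls, -0.73, -0.75 and -0.72 on Day 2, and -0.34, 0.19 and -0.09 on Day 4. The 3 groups did not overlap, and the Day 4 arrays spanned a wider range than the other 2 groups together. hsf1 was not among the probes called. Neither hsf1 nor bag3 held the limit of 0.5 whichever array was left out. Without Day 4 replicate 2 the hsf1 difference was 0.37. For bag3 it was 0.49 without control replicate 2, 0.47 without control replicate 3 and 0.46 without Day 4 replicate 1. Of the 5 probes for heat shock factors the 1 called was hsf2, with a level of 0.66 to 0.71 in controls, 1.62 to 1.66 on Day 2 and 1.93 to 2.15 on Day 4. It was called higher in both Day 2:Control (0.96 ± 0.08, SE, adjusted P = 0.00728) and Day 4:Control (1.32 ± 0.08, adjusted P = 0.00534), as 1.91% and 0.712% of all probes were.

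Other chaperones were described from fixed lists, which share the samples and so the controls of the 96 probes. Over 5 lists of cytosolic chaperones (HSP70 and HSP110, HSP90, HSP40, other co-chaperones, small heat shock proteins) 2 of 89 probes were called higher in Day 4:Control, hsp70.3 and bag3, and 1 lower, hspb9l, against 0.712% of all probes called higher and 0.637% called lower. hsp70.3 and bag3 are among the 96, so their calls use the contrasts that chose them and nothing is read from them. At an unadjusted limma P-value under 0.05, 28 of the 89 differed in either direction in Day 4:Control, against 3220 of the 21495 probes. Of the 89, 64 passed the background filter, against 8024 of the 21495. Fitted alone, 3120 of the filtered probes had such a P-value. That fit and its probes differ from those behind the 28, so the counts are not alike and nothing is read from the 28. The median of the 64 was 0.03 in Day 4:Control and 0.20 in Day 4:Day 2, against 0.02 and 0.03 for all filtered probes. By list the Day 4:Control median was 0.22 for HSP70 and HSP110 (6 filtered probes, 2 among the 96) and 0.15 for HSP90 (10). It was 0.09 for other co-chaperones (15, 1 among the 96) and 0.30 for small heat shock proteins (4). In Day 4:Day 2, 6 of the 89 were called higher and 0 lower by limma, against 0.675% of all probes called higher and 1.03% called lower. Besides hsp70.3 and bag3 the 6 comprised hspa4a, of the HSP110 family (0.58 ± 0.07, SE, adjusted P = 0.0345), hsp90aa1.1, a stress-induced HSP90 (0.85 ± 0.11, adjusted P = 0.0387), and 2 probes of hsp90ab1, the constitutive HSP90 (1.46 ± 0.16, adjusted P = 0.0278; 0.79 ± 0.07, adjusted P = 0.0232). For these 4 probes the level on Day 2 lay 0.29 to 0.43 below controls, outside the limit of the 96. The HSP90 probes did not read alike, since the 8 filtered probes of hsp90ab1 ranged from -0.43 to 1.13 in Day 4 minus control. The HSP40 list, which does not hold TC269112, had a median of 0.00 over 29 filtered probes. The chaperones of the endoplasmic reticulum had a median of -0.21 over 27 filtered probes, with 2 of 34 probes called lower in Day 4:Control, creld2 and pdia4, and 4 in Day 4:Day 2.

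**Figure D4:**
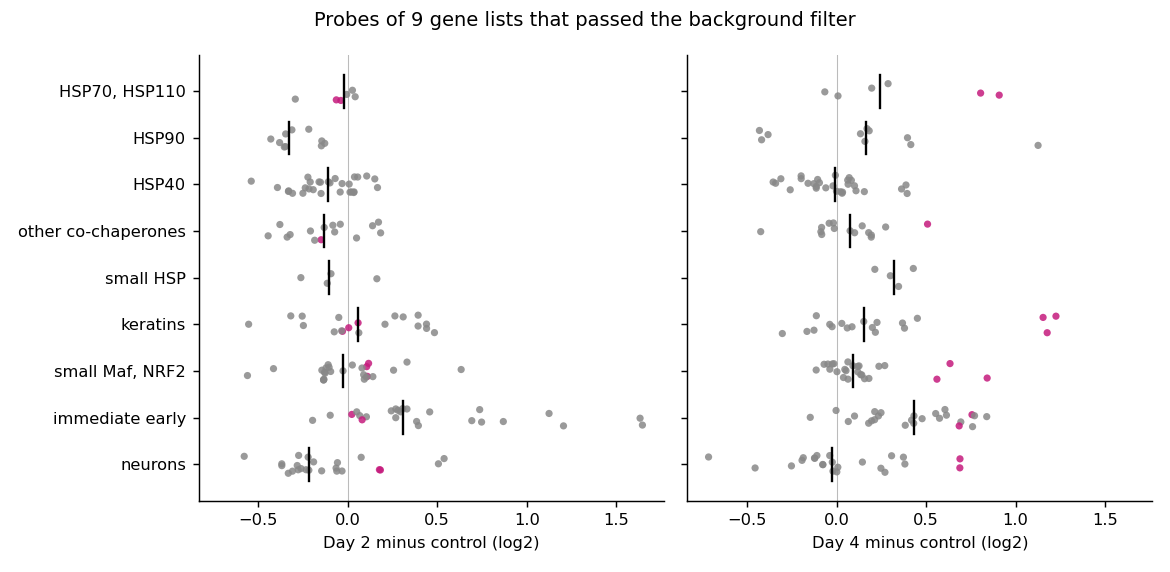
Day 2 minus control (left) and Day 4 minus control (right), in log2 units, for the filtered probes of 9 gene lists, with each point a probe, magenta for those among the 96 and black bars for list medians. In the right panel the magenta points of the keratin and HSP70 lists sit apart from most of their list, while the median of the immediate early list lies to the right of 0 in both panels.

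Transcription factors of the NR4A, Maf and other families made up 2, 4 and 4 of the 96 probes. The orphan nuclear receptors nr4a1 and nr4a2b, which are immediate early genes in many cells, were alike on all Day 4 arrays. The level of nr4a1 was -0.84, -0.88 and -0.79 in controls, -0.75, -0.73 and -0.79 on Day 2, and -0.06, -0.12 and -0.06 on Day 4, a 1.69-fold difference. That of nr4a2b was 1.63, 1.51 and 1.54 in controls, 1.66, 1.57 and 1.52 on Day 2, and 2.25, 2.22 and 2.26 on Day 4, a 1.61-fold difference. Control and Day 2 arrays overlapped for nr4a2b and lay next to each other for nr4a1, with Day 4 far above both.

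Of the 32 probes of the immediate early list 11 were called higher in Day 2:Control (1.91% of all probes) and 7 in Day 4:Control (0.712%). The 2 NR4A probes are among the 7 through the contrast that chose them, and the Day 2 limit left no room for a call on Day 2. Among the genes called higher at both times were fosab (1.63 and 0.69 above controls on Day 2 and Day 4), a probe of junba (1.65 and 0.77) and dusp5 (1.21 and 0.84). fosab and junba were called lower in Day 4:Day 2 by 0.97 ± 0.08 and 0.90 ± 0.07 (SE, adjusted P = 0.0223 and 0.0200).

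All 3 small Maf genes with a filtered probe on the list, maff, mafgb and mafk, were among the 96, against 1.2% of all filtered probes. The list was drawn up with earlier results of these data known, so nothing is read from this count. The large Maf factor mafba, which acts in macrophages and hindbrain, was also among the 96. For maff the levels were 0.98, 1.01 and 1.04 in controls, 1.05, 1.14 and 1.15 on Day 2, and 1.57, 1.68 and 1.69 on Day 4. For mafk they were -1.97, -2.0 and -2.05 in controls, -1.80, -1.97 and -1.92 on Day 2, and -1.42, -1.07 and -1.01 on Day 4. In both genes all 3 Day 4 arrays exceeded the 6 others, and replicate 1 was the lowest of them, by less for maff. mafgb was 1.47-fold and mafba 1.57-fold higher. The list of small Maf genes and antioxidant genes that NRF2 proteins regulate had 32 probes, and the median of its 25 filtered probes was 0.08 in the Day 4:Control fit. In Day 4:Control 1 of the 32 was called higher, maff, and 0 lower. The filtered probes of gclc, gclm, nqo1, txnrd3 and pgd, which act in glutathione synthesis and redox balance, lay between -0.12 and 0.09 in Day 4 minus control. In Day 4:Day 2 maff and the ferritin gene fth1b (0.58 ± 0.08, SE, adjusted P = 0.0493) were called higher (0.675% of all probes), and txnb was called lower (-0.52 ± 0.07, adjusted P = 0.0433; 1.03%). On Day 2 fth1b lay 0.56 below controls and txnb 0.63 above. A second mafk probe, which was well above background on no array, differed by 0.15.

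The other 4 transcription factors had small differences on replicate 1. For mef2d, a factor of muscle and neuronal differentiation, the levels were -1.35, -1.33 and -1.47 in controls, -1.62, -1.26 and -1.61 on Day 2, and -1.05, -0.08 and -0.20 on Day 4. The value of replicate 1 was nearer to controls than to the other Day 4 arrays. A second mef2d probe, well above background on 4 arrays, differed by 0.05. For ahr2, a zebrafish aryl hydrocarbon receptor, the levels were 1.45, 1.47 and 1.46 in controls, 1.68, 1.62 and 1.55 on Day 2, and 1.56, 2.28 and 2.20 on Day 4, so that replicate 1 lay within the range of Day 2. tfe3a, a factor of lysosomal genes, was 0.31 above controls on replicate 1 and 0.77 on replicates 2 and 3, and mxi1, a MYC antagonist, 0.34 and 0.60.

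**Figure D5:**
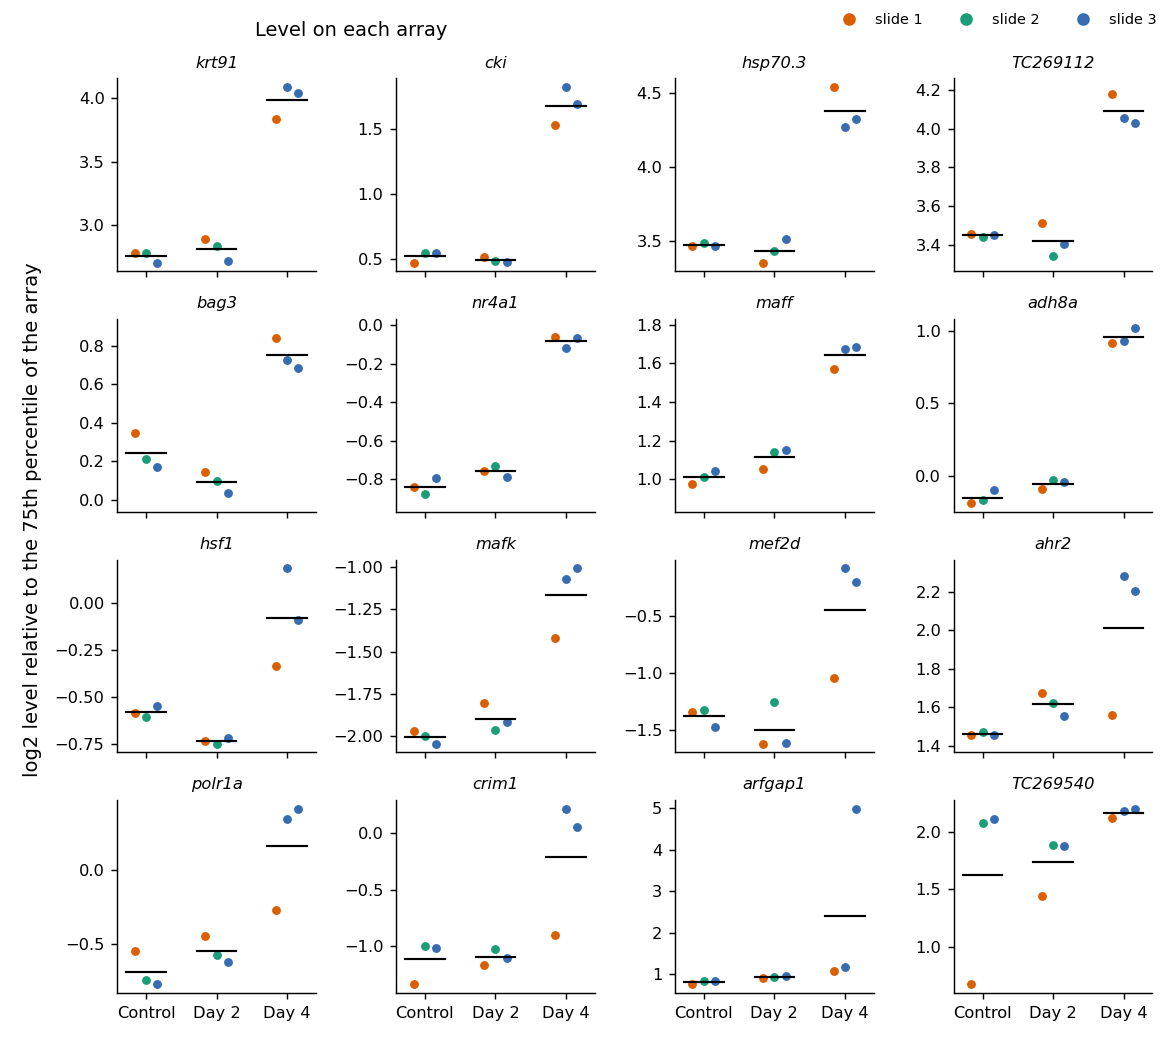
Log2 level relative to the 75th percentile of the array (y axis) on the 3 arrays of each group (x axis) for 16 of the 90 names, 1 probe each, with points coloured by slide and bars at group means. In the upper 8 panels all 3 Day 4 arrays lie close together above the rest, in mef2d, ahr2, polr1a and crim1 the Day 4 array of slide 1 lies below the other 2, and in arfgap1 and TC269540 a single array sets the difference.

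Proteins that act on chromatin or RNA contributed 6 probes with differences of 0.58 to 0.92, and 5 of these lay at least 0.25 lower on replicate 1. The histone demethylase kdm7aa had levels of 0.11, 0.36 and 0.29 in controls, -0.31, 0.36 and 0.28 on Day 2, and 0.78, 1.35 and 1.4 on Day 4. Replicate 1 was the lowest array in each group. polr1a, the largest subunit of RNA polymerase I, was at -0.55, -0.75 and -0.78 in controls, -0.45, -0.58 and -0.62 on Day 2, and -0.27, 0.35 and 0.42 on Day 4. The others were the SWI/SNF subunit Smarcc1, the mRNA export factor zc3h11a, rbm48 and gpatch8.

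Kinases and phosphatases gave 8 probes with differences of 0.51 to 1.09. mknk2a, a kinase that phosphorylates translation factor eIF4E, had -0.48, -0.53 and -0.47 in controls, -0.53, -0.57 and -0.59 on Day 2, and -0.00, 0.15 and 0.19 on Day 4. It was the 1 probe of the 8 for which replicate 1 was less than 0.25 below the others. pptc7a, a mitochondrial phosphatase, had the largest difference of the group (1.09), with replicate 1 at 0.62 and replicates 2 and 3 at 1.32 above controls. A second pptc7a probe, well above background on 6 arrays, differed by 0.91 and was 0.40 above controls on Day 2.

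Enzymes and carriers of metabolism gave 7 probes, led by adh8a, an alcohol dehydrogenase. Its levels were -0.19, -0.17 and -0.10 in controls, -0.09, -0.03 and -0.04 on Day 2, and 0.92, 0.93 and 1.02 on Day 4, a 2.16-fold difference with the Day 4 arrays close together. slc25a33, a mitochondrial carrier of pyrimidine nucleotides, was 1.46-fold higher and cyp2n13, a cytochrome P450, 1.43-fold. Both had replicate 1 near the other Day 4 arrays. On Day 2 slc25a33 already lay 0.22 above controls, with every array above every control. A second cyp2n13 probe, well above background on 3 arrays, differed by 0.01. The transcript ENSDART00000006480, described as the pyrimidine synthesis protein CAD, was at -0.22, -0.23 and -0.15 in controls, -0.34, -0.37 and -0.36 on Day 2, and 0.33, 0.41 and 0.40 on Day 4. For this transcript Day 2 lay below controls on every array.

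Proteins of the cytoskeleton and of membrane traffic gave 8 probes. The 2 probes of stmn4, a neuronal regulator of microtubules, overlap on chromosome 20 and had a difference of 0.69 each, with replicate 1 (0.80 and 0.77) above replicates 2 and 3 (0.64 and 0.65). Both already lay 0.18 above controls on Day 2, with every Day 2 array above every control. Between Day 4 and Day 2 they differed by 0.51 each. The list of neuronal markers as a whole did not share the Day 4 difference. Its 23 filtered probes had a median of -0.01 in the Day 4:Control fit, its summed log2 level was 6.30 to 6.39 in controls and 6.32 to 6.39 on Day 4, and 1 of its 27 probes, a stmn4 probe, was called higher. The endocytic scaffold itsn2b and the actin-oxidizing enzyme mical3 were 0.64 and 0.66 above controls, with replicate 1 at 0.37 and 0.14.

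Ligands and membrane proteins were among the transcripts for which replicate 1 stood farthest below the other arrays. crim1, a membrane protein that binds bone morphogenetic proteins, was at -1.33, -0.99 and -1.01 in controls, -1.17, -1.02 and -1.10 on Day 2, and -0.90, 0.21 and 0.05 on Day 4. The Day 4 array of slide 1 exceeded the highest control by 0.0953. efna1a, a ligand of Eph receptors, was 0.16 above controls on replicate 1 and 0.87 on replicates 2 and 3. The chloride intracellular channel clic5b and the neighbouring transcript TC270854, described as a member of the same family, lie 713 bases apart on chromosome 18 and were 1.42-fold and 1.62-fold higher.

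The antimicrobial peptide gene nkl.4, known from lymphocytes, had 2 probes among the 96, with differences of 0.81 and 0.76. Its first probe had levels of -2.21, -2.30 and -2.11 in controls, -2.19, -2.38 and -2.23 on Day 2, and -1.63, -1.29 and -1.26 on Day 4. A further nkl.4 probe, which overlaps the first on the genome and was well above background on 6 arrays, differed by 0.92. For the second probe a spot of replicate 1 on Day 4 marked as an outlier was left out of the average, and the value of that array rests on the other spot.

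Several of the largest differences belong to transcripts without a RefSeq match. BC074056, a partial cDNA, was at -1.78, -1.80 and -1.96 in controls, -2.17, -1.71 and -1.90 on Day 2, and -0.28, -0.57 and -0.65 on Day 4, a 2.55-fold difference that was largest on replicate 1. ENSDART00000041278, described as unknown, was 1.98-fold higher. zgc:73226, which was matched to a RefSeq gene by name, was 2.40-fold higher. TC291927, described as axin-1 up-regulated gene 1, and sb:cb1050 lie 1024 bases apart on chromosome 24 and were 0.61 and 0.72 above controls, with replicate 1 at 0.54 and 0.90. On Day 2 they lay 0.23 and 0.15 above controls, and every Day 2 array of TC291927 exceeded every control. TC281585 carries the description of zgc:77395, the older name of eepd1, and the 2 probes were 0.73 and 0.60 above controls. On Day 2 they lay 0.12 and 0.21 above controls. By chromosome, the shares of filtered probes were highest on chromosome 18 (7 of 211) and chromosome 20 (10 of 344), against 1.2% over all. The count for chromosome 18 holds the neighbours clic5b and TC270854 and also TC269540, which rested on a single array. That for chromosome 20 holds both overlapping stmn4 probes, so nothing is read from these shares.

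In 3 transcripts, arfgap1, TC292455 and TC269540, most of the difference rested on a single array. For arfgap1, a regulator of Golgi traffic, the levels were 0.76, 0.84 and 0.83 in controls, 0.91, 0.93 and 0.95 on Day 2, and 1.08, 1.18 and 4.99 on Day 4. The 2 spots of replicate 3 read 0.89 and 9.09, and without that array the difference of 1.61, the largest of all 96, was 0.32. For TC292455 the Day 4 levels were 2.38, 2.43 and 5.01 against 2.31 to 2.37 in controls, the spots of replicate 3 read 2.40 and 7.61, and the difference without it was 0.08. TC269540 was at 0.67, 2.08 and 2.11 in controls and 2.12, 2.19 and 2.20 on Day 4, and without control replicate 1 the difference was 0.07. A smaller part did so in another 2. For wu:fj42e07 the controls read -0.11, 0.55 and 0.52 and the Day 4 arrays 0.68, 0.91 and 0.89, and the difference of 0.51 was 0.30 without control replicate 1. For TC281817, the difference of 0.53 was 0.31 without Day 4 replicate 2. Over all 96 probes, 50 met the limits whichever single array was left out.

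Other probes of the same genes gave a check on the probe where they read other bases, though not on the RNA. For 21 genes there were 24 further probes outside the 96. Of these 8 were well above background on all 9 arrays. On Day 4, 6 of the 8 were higher than in controls, 5 of them without overlap, as 24.3% of the filtered probes were. The 5 include probes of eepd1 and efna1a whose positions match or overlap those of a probe among the 96. The genes were also chosen on this contrast in the same pools, so nothing is read from this count. A second adh8a probe differed by 1.15 and a second eepd1 probe by 0.68. Both were left out because Day 2 was 0.32 and 0.27 above controls. The second eepd1 probe has the same genome position as the first, so it gives no check on the probe. Second probes of rhpn2 (0.48), efna1a (0.45) and ahr2 (0.28) were higher by less than 0.5. On Day 2 they lay 0.09, 0.15 and 0.24 above controls. The second ahr2 probe thus differed by only 0.04 between Day 4 and Day 2, and its Day 4 and Day 2 arrays overlapped. The second efna1a probe overlaps the first on the genome. The 2 further mxi1 probes differed by 0.08 and -0.18 and that of vat1 by -0.25, with replicates 2 and 3 of Day 4 at -0.74 and -0.78 and replicate 1 at -0.17 for vat1, against -0.26 to -0.33 in controls.

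The probes most like krt91 and hsp70.3 over the 9 arrays were found by Pearson's correlation, as a description without a test. Besides its own second probe (0.998), krt91 was most like cki (0.993), dnajc4 (0.993) and rasgef1ba (0.990). hsp70.3 was most like hsd11b2 (0.990), which inactivates cortisol, and BC074056 (0.987). These arrays share 3 pools, so that any transcripts high in the Day 4 pool alone correlate.

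In the model across all probes 26 of the 96 were called higher in Day 4:Control, where 1.5% of the filtered probes were, and 24 in Day 4:Day 2, where 1.32% were. These calls use the contrasts that chose the probes and are given as counts only. Of the 26, 20 were among the 38 probes for which replicate 1 followed the other Day 4 arrays. The way the 38 were set apart gives them a smaller spread on Day 4 (median SD 0.09, against 0.32 in the other 58). A smaller spread favours a call, so nothing is read from the 20. In Day 2:Control limma called 0 of the 96, 6 had an unadjusted P-value under 0.05, and the methods' paired t-test gave 31 such and 0 calls. The Day 2 limit of 0.25 lies below the 1.4-fold of a call, so none was possible, and nothing is read from the 3.53% of filtered probes called higher. The count of 26 depended on the processing and on the arrays. It was 1 with the 50th percentile, 0 with normexp background correction (11 at an unadjusted P-value under 0.05) and 0 by the methods' paired t-test (57). It was 32 with the replicate number as a block, 41 with quantile normalization, 52 without the slide, 73 with trend and robust variance and 78 when only the filtered probes were fitted. Among fits with an array left out, it was 73 without Day 4 replicate 1, 6 without Day 2 replicate 1 and 2 without Day 4 replicate 2. It was 0 without any 1 of Control replicates 1, 2 and 3, Day 2 replicates 2 and 3 and Day 4 replicate 3. Slide 2 held only replicate 2 of controls and of Day 2, so with the slide in the model leaving out either gave the same fit.

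Of 9 hair cell marker probes 4 were well above background on all arrays (myo7aa, cib2, atoh1a and gfi1ab), while otofa and cdh23 were so on none, and 15 of 16 probes for supporting cells and otolith matrix were. Of 50 skeletal muscle probes 12 were called lower in Day 4:Control (0.637% of all probes), and of 10 pituitary probes 5 were called higher then (0.712%) and 6 on Day 2 (1.91%). The summed log2 level of the muscle list was 5.56 to 5.60 in controls, 5.30 to 5.41 on Day 2 and 5.07 to 5.12 on Day 4, and that of the pituitary list -1.10 to -0.79, 2.89 to 3.04 and 1.98 to 2.11. Of 25 probes for liver and ovary products, of which 1 was well above background on all arrays, 3 were called higher in Day 4:Control and 4 in Day 4:Day 2 (0.675%), and their summed log2 level was 0.21 to 0.33 in controls, 0.51 to 0.63 on Day 2 and 1.33 to 1.68 on Day 4. Of 12 cartilage and bone probes 4 were called lower in Day 4:Control and 6 in Day 4:Day 2 (1.03%), with a summed level of 6.69 to 6.70, 6.80 to 6.86 and 6.29 to 6.44. No probe of the muscle, pituitary, liver and ovary, cartilage and bone, macrophage, neutrophil or erythroid lists was among the 96. These lists held 20, 1, 1, 10, 23, 6 and 6 filtered probes in that order, and 1.2% of all filtered probes were among the 96. The Day 2 limit also keeps out probes that already differed on Day 2, so nothing is read from their absence. The part of these tissues in the differences was not tested.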

How the data were processed

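The authors hybridized labelled RNA to 1-colour Agilent zebrafish arrays and deposited the intensity of each spot as extracted by Feature Extraction 9.5.1 (background-subtracted processed signal, not scaled between arrays), with positions on danRer2. Series tables of group means, fold changes and P-values made by the authors in GeneSpring were not used. Here control spots and outlier spots were left out, the deposited intensity was taken to log2, reduced by the log2 75th percentile of that array's spots, and averaged over the 2 spots of a probe. This percentile replaced the 50th of the methods because the rule for the members uses it and about as many spots are not well above background as are. For calls across all 21495 probes, limma 3.58.1 in R 4.3.3 (lmFit, eBayes) was fitted to 9 arrays with group and slide. The slide was read from the scan records, in which Day 4 had no array on slide 2 and 2 on slide 3, other than the methods describe. The fit was tested on simulated data with independent noise and no slide effect, so that test gives no support to the calls on these arrays.

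Same-numbered arrays of the controls and Day 2 deviated together (r = 0.50, 0.27 and 0.54), but those of Day 4 did not pair with either (-0.06 to 0.12). No pairing by number was therefore taken for Day 4. By slide, the Day 4 arrays did not pair with control or Day 2 arrays either (r = -0.02 to 0.12). The slide was kept in the model all the same, and calls without it are given below. Probes were named through RefSeq (GRCz12tu) for 10385, and 11110 kept the name in the files. Members and gene lists were chosen with earlier results of these data known. Named are the 25 members with the largest Day 4 difference, 1 probe per gene, members on a list, other probes of these genes, probes next to a limit, and called genes of a described list. Some further members, named to describe a role or a single array, were chosen after their values were seen. The number of arrays limits the precision. P-values measure the spread between hybridizations of 1 pool per group. Promoter motifs were not analysed here. Values of 1 member gene are not reported here. Tables were read with pandas 2.3.3 and plots drawn with matplotlib 3.10.9.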

Additional observations from a re-analysis of the deposited data

How the results depend on the processing

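The 96 members became 213 with the 50th percentile (85 shared with the 96), 26 with normexp background correction (16 shared), 297 with no background filter (96 shared) and, chosen after seeing the data, 42 with Day 4 given by replicate 1 alone (35 shared). Leaving out 1 array gave 74 to 181 members, with 181 without Day 4 replicate 1. The median difference of the 96 was 0.43 with normexp and 0.43 within slide 1, against 0.63, and leaving out 1 array gave 0.55 to 0.75. The 50th percentile moved the median of all filtered probes to 0.16 and that of the 96 to 0.77. Of 396 values of 33 named members under these alternatives 0 changed sign and 37 moved by more than the spread between arrays. Leaving out a Day 2 array cannot change the Day 4 difference. When a control or Day 4 array is left out, the limit on overlap keeps that difference above 0. Nothing is therefore read from the absence of sign changes.

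Calls across all probes depended on the processing. In Day 4:Control they were 290, but 59 with the 50th percentile (21 higher), 477 with quantile normalization, 525 without the slide, 725 with trend and robust variance, 0 with normexp (125 at an unadjusted P-value under 0.05) and 0 by the methods' paired t-test (2729), with 12 to 837 when 1 array was left out. In Day 2:Control they were 629, but 158 with the 50th percentile, 0 with normexp (317) and 190 by the paired t-test, with 26 to 720 when 1 array was left out. In Day 4:Day 2 they were 367, but 14 with the 50th percentile, 624 with quantile normalization, 728 without the slide, 892 with trend and robust variance, 0 with normexp (243) and 0 by the paired t-test (2746), with 0 to 967 when 1 array was left out. The share called higher in Day 4:Control was 66.0% among filtered probes alone, against 52.8%. The 3 calls in the 5 chaperone lists became 1 with the 50th percentile, 5 with quantile normalization, 6 without the slide, 6 with trend and robust variance, 0 with normexp (1 unadjusted) and 0 by the paired t-test (23 unadjusted), with 0 to 10 when 1 array was left out. Leaving out replicate 2 of controls or of Day 2 gave the same fit, since the slide term then takes up the other array of slide 2. The causes were not tested.

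With the replicate number as a block in place of the slide the calls were 335, 599 and 441, and 4 in the chaperone lists. Neither the numbers nor the slides paired the Day 4 arrays with those of the other groups. Signal near background limits the dim members, and the motif search in promoters was not run.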
